A study of Mus musculus with 9 samples.

Results

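Immediate early response genes are the genes that cells switch on within minutes of a signal without first making new protein, and 45 of them were followed in adult mouse testis after injection of inhibitors of KIFC1, a minus-end-directed kinesin motor. The 45 were given by symbol, as a list drawn up with earlier results of these data known, and all 45 were found among the 19991 genes of the deposited count table. They comprise AP-1 subunits and their partners, EGR zinc fingers, NR4A orphan receptors, KLF and other transcription regulators, MAP kinase phosphatases, regulators of mRNA decay, signalling and feedback proteins, and secreted matricellular proteins. The 3 groups were ICR mice (an outbred stock) of 8 weeks injected with AZ82 at 1 µM, with CW069 at 50 µM, or with PBS alone (Control). There were 3 testis libraries in each group. The labels give no time between injection and collection, no route, and no statement that the 3 libraries of a group came from separate animals. P-values therefore measure the spread between these libraries, which may be technical in part.

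Signals that reach the cell surface activate MAP kinase and cyclic AMP pathways, whose kinases phosphorylate factors already bound at immediate early promoters, such as SRF with its ternary complex partners and CREB. The first wave of products includes transcription factors such as FOS, JUN, EGR1 and NR4A1, which act on later genes, and inhibitors such as the DUSP phosphatases, ZFP36 and SOCS3, which end the response. In the testis, luteinizing hormone is known to induce NR4A1 in Leydig cells through cyclic AMP, the CREB relative CREM drives spermatid genes, and mice without Egr4 or Jund have defects of spermatogenesis.

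The promoters of 5 members whose libraries stood apart from Control after one or both inhibitors are shown, picked because they carry the sites through which these pathways are known to act. Klf2, Fosb, Junb, Maff, Egr4, Nr4a2, Srf and Ccn1 also stood apart and carry such sites in a matched promoter, but are not shown. The windows of Jund, Socs3 and Gadd45g, which also stood apart, held 0 of either site. Sik1, Myc, Dusp4 and Ier2 stood apart too, but no promoter was matched for them. Each promoter shown is the 250 bases before the gene's start, from RefSeq on build GRCm38.p6, written 5′ to 3′. Capitals mark TGACG, the core of a cyclic AMP response element, read in either orientation, and the CArG box, the site of SRF.
Fos, chr12:85473640-85473889, plus strand: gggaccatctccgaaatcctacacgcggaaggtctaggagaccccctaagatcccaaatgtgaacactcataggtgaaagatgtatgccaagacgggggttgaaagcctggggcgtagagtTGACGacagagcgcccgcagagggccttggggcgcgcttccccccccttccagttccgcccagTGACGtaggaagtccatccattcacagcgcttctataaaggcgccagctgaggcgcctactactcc
Npas4, chr19:4989972-4990221, minus strand: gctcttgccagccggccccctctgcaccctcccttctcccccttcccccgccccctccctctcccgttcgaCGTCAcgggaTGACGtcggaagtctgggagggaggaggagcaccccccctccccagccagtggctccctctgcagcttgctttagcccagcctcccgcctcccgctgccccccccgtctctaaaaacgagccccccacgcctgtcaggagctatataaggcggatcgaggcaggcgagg
Nr4a1, chr15:101266596-101266845, plus strand: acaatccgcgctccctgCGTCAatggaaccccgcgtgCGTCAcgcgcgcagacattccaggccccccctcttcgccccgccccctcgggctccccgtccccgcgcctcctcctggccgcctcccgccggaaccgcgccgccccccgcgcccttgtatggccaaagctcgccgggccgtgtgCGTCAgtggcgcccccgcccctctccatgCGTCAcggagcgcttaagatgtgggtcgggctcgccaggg
Dusp1, chr17:26508473-26508722, minus strand: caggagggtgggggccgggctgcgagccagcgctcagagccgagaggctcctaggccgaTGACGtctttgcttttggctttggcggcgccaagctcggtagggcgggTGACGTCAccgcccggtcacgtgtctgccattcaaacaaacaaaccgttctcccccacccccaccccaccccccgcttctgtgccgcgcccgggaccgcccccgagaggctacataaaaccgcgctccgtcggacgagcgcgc
Dusp5, chr19:53528895-53529144, plus strand: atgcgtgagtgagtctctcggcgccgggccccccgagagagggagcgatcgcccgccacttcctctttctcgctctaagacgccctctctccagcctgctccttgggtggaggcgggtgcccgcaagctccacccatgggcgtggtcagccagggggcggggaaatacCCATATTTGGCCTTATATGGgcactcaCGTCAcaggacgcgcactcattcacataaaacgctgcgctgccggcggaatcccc
Nr4a1 held 4 cores, Dusp1 held 3, Fos and Npas4 held 2 each, and Dusp5 held 1 core beside 2 adjoining CArG boxes. A pair of overlapping cores in Dusp1 forms the full element TGACGTCA. RefSeq promoters were matched for 34 of the 45 members, 44 promoters in all. TGACG on either strand was in 27 of these 44 promoters (61.4%) and in 17.8% of all 32851 promoters of that length. Egr2, Csrnp1, Maff and Per1 had more than 1 promoter each. Counted by gene, TGACG was present for 20 of 34 members (58.8%) and for 19.8% of all 27025 genes. TGACGTCA, which contains TGACG, was in 3 of the 44 (6.82%), those of Btg2, Dusp1 and Maff, and in 1.55% of all. A CArG box was present for 4 of 34 members (11.8%; Dusp5, Egr2, Srf and Zfp36) and for 1.62% of all 27025 genes. The AP-1 site TGACTCA, searched on both strands, was found for 1 member, Csrnp1, and for 5.16% of genes. GGGCGG, the GC box, was in 70.5% of member promoters and in 32.7% of all, so base composition differed too. These matches describe the letters in the window and not binding.

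Total counts ran from 14080156 to 14386351 after AZ82, from 14318774 to 18102593 after CW069, and from 13856070 to 15507318 in Control. Levels are given as CPM, the count of a gene scaled to its library's size with TMM factors. A filter on low counts kept 15834 genes, 43 members among them. Atf3 and Egr2, with 1 to 10 counts in a library, did not pass it. The libraries expressed the markers of testis: the elongating spermatid list summed to 14240 to 17210 CPM after AZ82, 11570 to 13540 CPM after CW069 and 5868 to 15560 CPM in Control. Control 3, at 5868 CPM, had the lowest sum, 1.05 on the log2 scale below the mean of all libraries by the list's median. The Leydig list summed to 1491 to 1799 CPM after AZ82, 1412 to 1466 CPM after CW069 and 1731 to 1866 CPM in Control. Every library is whole testis, so fewer cells of a type and less RNA per cell cannot be told apart.

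Many immediate early genes were well expressed in the testis of Control mice. Per kilobase of transcript, the order in Control was led by Arc, a capsid-like protein known from synapses, at 82.6 ± 6.15 CPM per kb (SD, n = 3). Next came Klf4, a factor known from spermatids and Sertoli cells, at 46.5 ± 2.82 CPM per kb, and Per1, a clock repressor, at 36.3 ± 5.92 CPM per kb. These 3 genes did not overlap with each other or with the next gene across the Control libraries. Jund at 26.4 ± 4.20, Srf at 22.1 ± 1.14 and Csrnp1 at 21.5 ± 4.04 CPM per kb followed, Srf overlapping with both of the others. Nr4a1 at 14.7 ± 1.63 and Ccn2 at 11.98 ± 0.743 CPM per kb each stood apart from the next gene. From Zfp36l1 at 9.45 CPM per kb downwards most neighbours overlapped. Of the first-wave factors, Jun at 2.80 ± 0.190 CPM per kb ranked 23 of 45, and Egr1 at 1.40 ± 0.274 CPM per kb ranked 30. Npas4 was lower at 0.405 ± 0.0331 CPM per kb, and below it came Fos at 0.379 ± 0.0558 and Nr4a2 at 0.167 ± 0.0430 CPM per kb. Lengths were those of the longest coding transcript in an annotation of an earlier build, and a shorter testis transcript would raise a gene in this order.

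**Figure D1:**
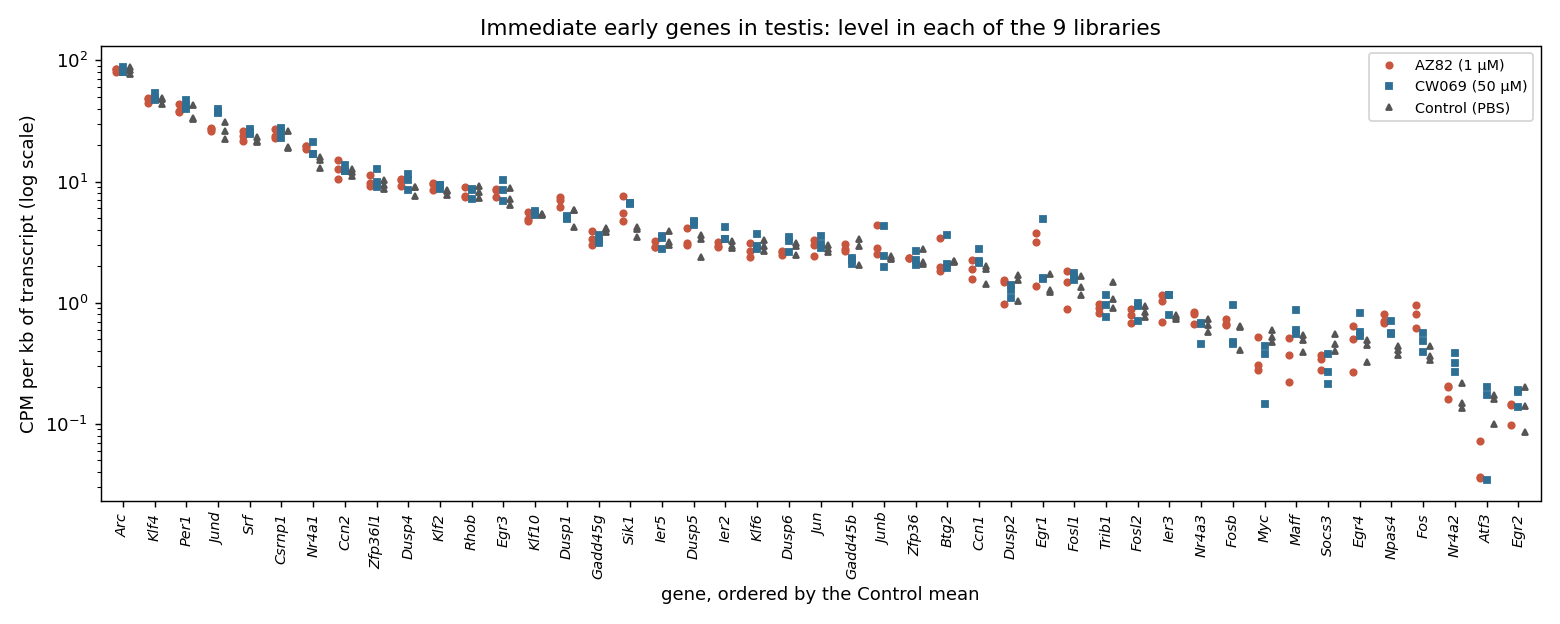
Level of each of the 45 immediate early genes in each library, in CPM per kb of transcript on a log axis, for AZ82 (circles), CW069 (squares) and Control (triangles), ordered by the Control mean. Arc, Klf4 and Per1 lead, while Fos, Nr4a2, Atf3 and Egr2 lie lowest.

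AZ82 against Control and CW069 against Control ask how each inhibitor moved the testis transcriptome. Among the members, Sik1, Nr4a1, Npas4 and Klf2 were higher, and Socs3 lower, in all 6 inhibitor libraries than in any Control library. Fos and Dusp1 were higher than every Control library after AZ82, and Jund, Dusp5 and Nr4a2 after CW069. None of these passed edgeR's quasi-likelihood test adjusted over all 15834 genes, so no member is described as changed. Both comparisons share the 3 Control libraries.

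After AZ82, edgeR called 0 of 43 members, against 0% of all genes (smallest adjusted p among members 0.554). DESeq2 called 0 members and 0.0379% of genes, and limma-voom 0 members and 0.00632% of genes. At an unadjusted p under 0.05, 5 members (11.6%) were higher and 0 were lower, against 4.04% and 4.79% of all genes. The groups did not overlap for 9 members that were higher (20.9%) and for 1 that was lower (2.33%), against 6.65% and 8.62% of all genes. The median log2 fold change over members was 0.09, with 31 of 43 above 0 (72.1%), beside a median of -0.00103 and 49.7% above 0 over all genes tested. That median was 0.04 without AZ82 1, and it was 0.01 with library size as the only scaling, which put the median of all genes at -0.08. Markers of round spermatids (8 of 8, median 0.14) and elongating spermatids (8 of 8, 0.40) also lay above 0 after AZ82. Elongating spermatid sums were 14240, 15390 and 17210 CPM, against 15560, 13900 and 5868 CPM in Control, where Control 3 alone was low. Adipocyte markers lay above 0 too (5 of 5, 0.37). Their sums were 16.01, 32.99 and 16.67 CPM, against 22.64, 18.36 and 17.03 CPM in Control, so AZ82 2 alone was high. Leydig (7 of 8) and Sertoli (8 of 9) markers lay mostly below 0. The part of these lists in the members' shift was not tested.

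After CW069, edgeR again called 0 members and 0% of genes (smallest adjusted p 0.396), limma-voom 0 members and 0% of genes, and DESeq2 2 members, Jund and Sik1, and 0.177% of genes. At an unadjusted p under 0.05, 7 members (16.3%) were higher and 1 (2.33%) lower, against 3.63% and 3.71% of all genes. There was no overlap for 12 higher members (27.9%) and 3 lower ones (6.98%), against 6.13% and 7.24% of genes. The median log2 fold change was 0.19 and 31 of 43 members lay above 0 (72.1%), beside -0.00385 and 49% over all genes. Without CW069 3 the number higher at an unadjusted p under 0.05 was 4, and without CW069 1 it was 11; the number lower was 0 without CW069 2. Markers of peritubular myoid and smooth muscle cells (7 of 7, median 0.19) and of round spermatids (8 of 8, 0.10) also lay above 0 after CW069. The smooth muscle list summed to 280.6, 283 and 240.4 CPM, and CW069 3 lay within the Control range of 234.1 to 249.8 CPM. Leydig markers went the other way (8 of 8 below 0, median -0.30), 7 of them without overlap. Most markers of spermatogonia, spermatocytes and macrophages (7 of 8 each) were below 0. The part of these lists in the members' shift was not tested. Summed over the members, the level was 1124 to 1192 CPM after AZ82, 1137 to 1270 CPM after CW069 and 1042 to 1122 CPM in Control. Arc, Per1 and Klf4, averaging 252.5, 169.7 and 140.9 CPM in Control, carry much of this sum. Each of them overlapped with Control after each inhibitor.

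**Figure D2:**
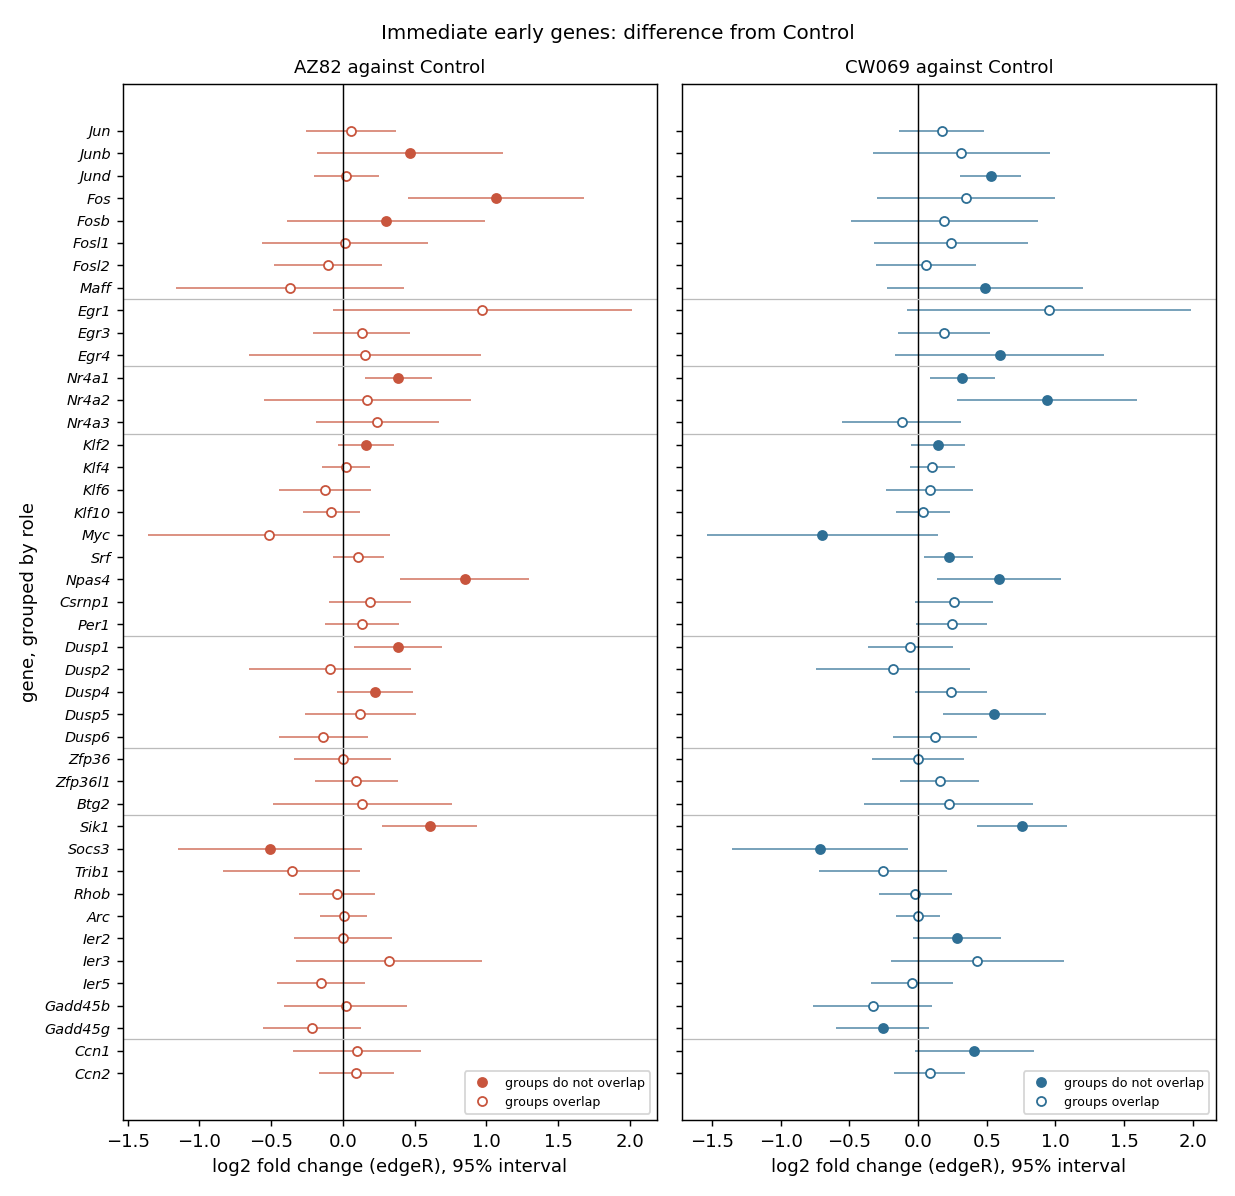
Log2 fold change (edgeR, with its 95% interval) of the 43 tested members after AZ82 (left) and after CW069 (right), each against Control, grouped by role. Filled points mark members whose libraries did not overlap with Control, among them Sik1, Nr4a1 and Npas4 on both sides, Fos on the left and Jund on the right; no member passed the test adjusted over all genes.

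Signalling proteins gave the member with the smallest p over both inhibitors together. Sik1 is a kinase, induced by cyclic AMP, that restrains the coactivators of CREB. It was at 24.9, 21.6 and 34.2 CPM in the AZ82 libraries, at 29.5, 30.2 and 29.9 CPM in those given CW069, against 18.4, 19.0 and 15.6 CPM in Control. All 6 inhibitor libraries lay above all Control libraries, with an SD of 0.337 CPM among the CW069 libraries. After AZ82 its log2 fold change was 0.61 ± 0.15 (SE; 95% interval 0.27 to 0.94; edgeR adjusted p = 0.554), and 0.39 without AZ82 3. After CW069 the value was 0.76 ± 0.15 (SE; 95% interval 0.43 to 1.09; edgeR adjusted p = 0.396; DESeq2 adjusted p = 0.00612).

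Socs3, an inhibitor of JAK and STAT signalling, went the other way. It was at 0.873, 0.714 and 0.938 CPM after AZ82 and at 0.959, 0.547 and 0.681 CPM after CW069, against 1.17, 1.03 and 1.40 CPM in Control. Every inhibitor library lay below every Control library, at 8 to 21 counts throughout. Macrophage markers summed to 60.6 to 71.8 CPM after AZ82 and 59.4 to 73.7 CPM after CW069, against 67.9 to 92.4 CPM in Control, and their part was not tested. Its log2 fold change was -0.51 ± 0.29 for AZ82 and -0.71 ± 0.29 for CW069 (SE; edgeR adjusted p = 0.613 and 0.655).

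Most other signalling members overlapped with Control. Arc averaged 254 ± 9.44 CPM after AZ82 and 252 ± 13.2 CPM after CW069, against 253 ± 18.8 CPM in Control (SD, n = 3 each). Rhob, a small GTPase, averaged 18.8 ± 2.03 and 19.1 ± 1.92 CPM after the inhibitors in the same order, against 19.4 ± 2.34 CPM in Control. Ier2, a nuclear protein, was at 5.07, 5.13 and 6.42 CPM after CW069, against 4.28, 4.49 and 4.92 CPM in Control, with a log2 fold change of 0.28 ± 0.14 (SE; edgeR adjusted p = 0.696) that was 0.16 without CW069 3. Gadd45g, a stress sensor needed for sex determination in mouse embryos, was at 3.90, 3.49 and 3.35 CPM after CW069, against 4.07, 4.43 and 4.32 CPM in Control (log2 fold change -0.26 ± 0.15, SE). Neither gene overlapped with Control after CW069. Ier3, Ier5, Gadd45b and Trib1, a pseudokinase, overlapped with Control after each inhibitor.

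Of the NR4A orphan receptors, Nr4a1, an activator of steroidogenic genes in Leydig cells, had the highest level per kb. It stood at 49.8, 47.3 and 50.1 CPM in the AZ82 libraries, at 43.4, 43.2 and 54.1 CPM in those given CW069, against 38.6, 41.0 and 32.9 CPM in Control. No inhibitor library lay within the Control range. AZ82 gave a log2 fold change of 0.39 ± 0.11 (SE; 95% interval 0.15 to 0.62; edgeR adjusted p = 0.554). CW069 gave 0.32 ± 0.11 (SE; 95% interval 0.09 to 0.56; edgeR adjusted p = 0.539), or 0.21 without CW069 3. Nr4a2 was at 1.37, 0.958 and 1.14 CPM after CW069, against 0.483, 0.770 and 0.532 CPM in Control, and AZ82 libraries overlapped with Control at 0.571 to 0.728 CPM. Its log2 fold change for CW069 was 0.94 ± 0.30 (SE; edgeR adjusted p = 0.539). Nr4a3 averaged 4.42 ± 0.562 CPM after AZ82 and 3.43 ± 0.719 CPM after CW069, against 3.74 ± 0.489 CPM in Control (SD, n = 3 each), and overlapped in both comparisons. The median deviation of Leydig markers from their mean over all libraries was -0.17, 0.09 and -0.06 in the AZ82 libraries, -0.15, -0.11 and -0.13 with CW069, and 0.11, 0.26 and 0.26 in Control (log2 scale, 8 genes), and their part in the result was not tested.

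AP-1 is a dimer of a JUN and a FOS family protein, and different subunits stood apart from Control after each inhibitor. Fos was at 2.04, 1.71 and 1.30 CPM in the AZ82 libraries, against 0.759, 0.706 and 0.931 CPM in Control, and CW069 libraries lay between 0.821 and 1.19 CPM. Each AZ82 library was above each Control library, on a low base of 11 counts in Control 1. The log2 fold change for AZ82 was 1.07 ± 0.28 (SE; 95% interval 0.45 to 1.68; edgeR adjusted p = 0.554). Jund, the AP-1 subunit with the highest level per kb, was at 61.1, 66.7 and 62.8 CPM after CW069, against 43.5, 51.3 and 37.3 CPM in Control, with AZ82 libraries at 43.7 to 45.8 CPM. CW069 libraries all lay above the rest. For CW069 the log2 fold change was 0.53 ± 0.10 (SE; 95% interval 0.31 to 0.75; edgeR adjusted p = 0.396; DESeq2 adjusted p = 0.0112). Jund passed edgeR's test without Control 2, the Control library where it was highest (0.65; adjusted p = 0.0495). Without Control 3 the fold change was 0.42, and over fits with a library left out the edgeR adjusted p reached 0.817.

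Junb and Fosb did not overlap with Control after AZ82, with log2 fold changes of 0.47 ± 0.29 and 0.30 ± 0.31 (SE; edgeR adjusted p = 0.633 and 0.769). They were 0.19 without AZ82 2 for Junb and 0.11 without Control 3 for Fosb. Maff, a small partner without an activation domain, was at 1.16, 1.71 and 1.08 CPM after CW069, against 0.966, 0.770 and 1.06 CPM in Control (log2 fold change 0.49 ± 0.32, SE; 0.26 without CW069 2). Jun, Fosl1 and Fosl2 overlapped with Control in both comparisons; Jun averaged 9.28 ± 1.37 CPM after AZ82 and 10.1 ± 1.25 CPM after CW069, against 8.93 ± 0.607 CPM in Control (SD, n = 3 each). Atf3, a repressor induced by stress, had 1 to 2 counts after AZ82, 1 to 7 after CW069 and 3 to 5 in Control.

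Transcription regulators outside these families included Npas4, a factor known from neurons that calcium entry induces. It was at 2.55, 2.93 and 2.45 CPM after AZ82 and at 1.99, 2.05 and 2.56 CPM after CW069, against 1.59, 1.35 and 1.46 CPM in Control. All inhibitor libraries were above all Control libraries. Its log2 fold change came to 0.85 ± 0.20 after AZ82 (SE; 95% interval 0.40 to 1.30; edgeR adjusted p = 0.554). After CW069 it came to 0.59 ± 0.20 (SE; 95% interval 0.14 to 1.04; edgeR adjusted p = 0.585). Klf2, an endothelial factor responsive to flow, had the same order with a smaller gap, at 15.9 to 17.8 CPM after AZ82 and 15.96 to 17.4 CPM after CW069, against 14.4 to 15.8 CPM in Control. Its log2 fold changes were 0.16 ± 0.09 and 0.14 ± 0.09 (SE), whose 95% intervals included 0. Endothelial markers summed to 53.5 to 61.8 CPM after AZ82 and 50.7 to 61.6 CPM after CW069, against 52.3 to 61.7 CPM in Control, so these ranges overlapped almost whole.

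Srf itself was at 64.4, 67.4 and 70.8 CPM after CW069, against 56.7, 55.6 and 61.3 CPM in Control (log2 fold change 0.22 ± 0.08, SE; edgeR adjusted p = 0.622). Myc, a growth regulator, was at 0.342, 0.890 and 1.02 CPM after CW069, against 1.10, 1.22 and 1.40 CPM in Control, with a log2 fold change of -0.70 ± 0.38 (SE) that was -0.37 without CW069 1. Both genes were free of overlap with Control after CW069 and overlapped after AZ82. Klf4, Klf6, Klf10, Csrnp1 and Per1 overlapped in each comparison. Csrnp1 averaged 72.5 ± 7.16 CPM after AZ82 and 76.1 ± 7.22 CPM after CW069, against 63.5 ± 11.9 CPM in Control (SD, n = 3 each).

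The MAP kinase phosphatases, which switch off the kinases that induced them, did not go one way. Dusp1, a nuclear phosphatase, was at 13.9, 12.2 and 14.9 CPM in the AZ82 libraries, against 11.6, 11.5 and 8.31 CPM in Control, and at 9.86 to 10.3 CPM after CW069. AZ82 libraries were above all others. The log2 fold change for AZ82 was 0.38 ± 0.14 (SE; edgeR adjusted p = 0.554), and 0.24 without Control 3. Dusp5, a nuclear phosphatase of ERK, was instead highest after CW069, at 11.8, 11.6 and 10.8 CPM, against 8.28, 8.99 and 5.92 CPM in Control, with AZ82 at 7.42 to 10.2 CPM. Its log2 fold change for CW069 was 0.56 ± 0.17 (SE; edgeR adjusted p = 0.539). Dusp4 was above Control after AZ82 at 25.1 to 29.0 CPM, against 20.9 to 24.9 CPM (log2 fold change 0.22 ± 0.12, SE; 0.14 without Control 3). Dusp2 and Dusp6, the cytoplasmic ERK phosphatase, overlapped with Control after each inhibitor.

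**Figure D3:**
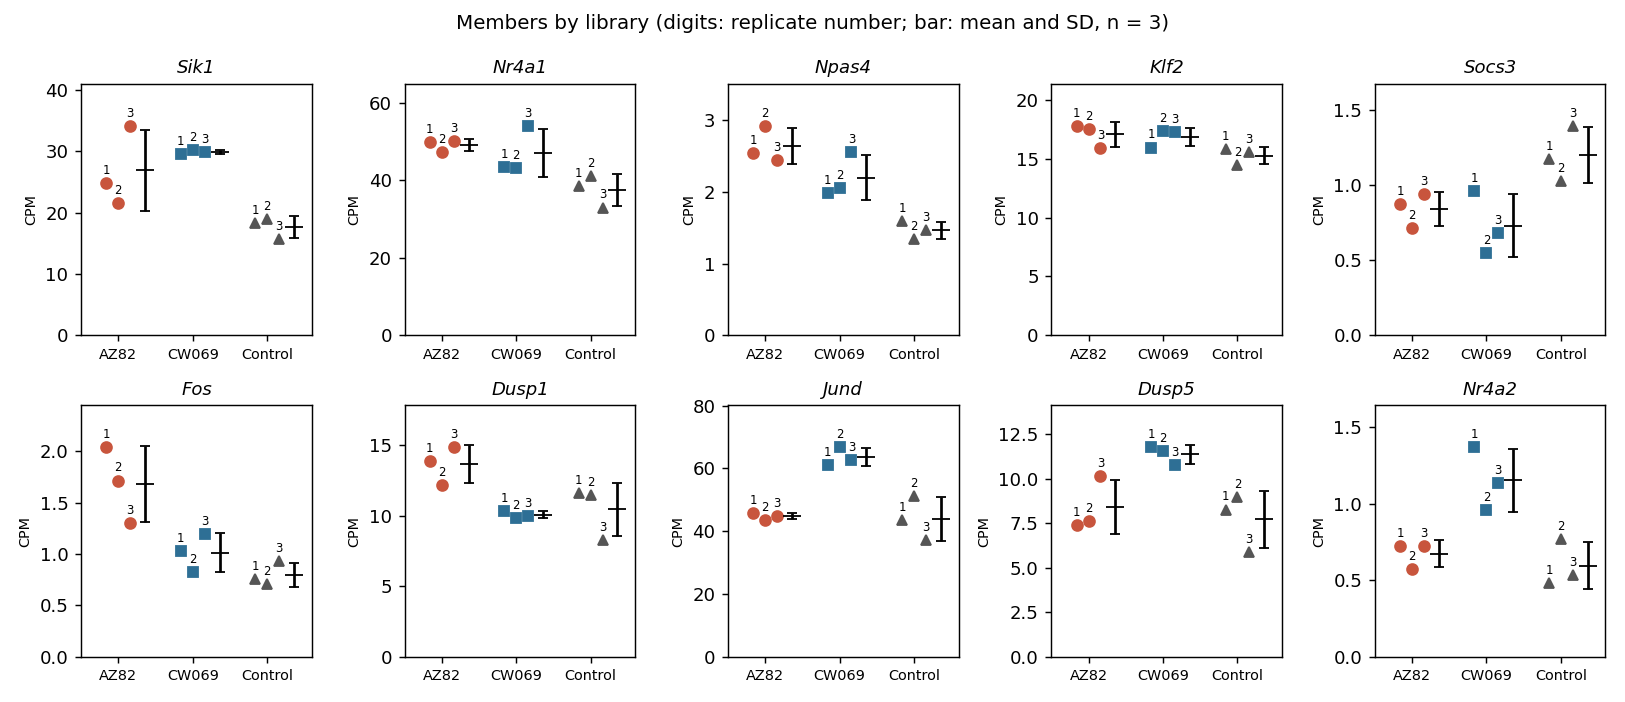
CPM in each library for 10 members whose groups did not overlap in at least 1 comparison with Control, with replicate numbers beside the points and the mean and SD (n = 3) as bars. Sik1, Nr4a1, Npas4 and Klf2 are above Control in all 6 inhibitor libraries and Socs3 below; Fos and Dusp1 are highest after AZ82, and Jund, Dusp5 and Nr4a2 after CW069.

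The EGR factor with the highest level per kb was Egr3, at 32.3 ± 2.48 CPM after AZ82 and 33.8 ± 6.80 CPM after CW069, against 29.5 ± 4.97 CPM in Control (SD, n = 3 each), with overlap in both comparisons. Egr4 was at 1.78, 1.23 and 1.14 CPM after CW069, against 0.690, 0.963 and 1.06 CPM in Control, a log2 fold change of 0.59 ± 0.34 (SE; edgeR adjusted p = 0.717) that was 0.38 without CW069 1. Among regulators of mRNA decay, Zfp36, which destabilises AU-rich messages, averaged 6.51 ± 0.0472 CPM after AZ82 and 6.51 ± 0.939 CPM after CW069, against 6.52 ± 1.06 CPM in Control (SD, n = 3 each). Of the matricellular genes, Ccn1, a target of the YAP and SRF pathways, was at 4.45, 5.61 and 4.32 CPM after CW069, against 3.86, 2.89 and 4.06 CPM in Control. Its log2 fold change was 0.41 ± 0.20 (SE; edgeR adjusted p = 0.689), and 0.27 without Control 2. Ccn2 averaged 31.8 ± 5.62 and 31.7 ± 1.87 CPM after AZ82 and CW069, against 29.8 ± 1.85 CPM in Control, and overlapped.

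By edgeR's estimate of variation within groups, Egr1 was the most variable of the 43 tested members. It was at 14.1, 16.8 and 6.21 CPM in the AZ82 libraries, at 7.05, 7.19 and 22.04 CPM in those given CW069, against 5.45, 7.70 and 5.72 CPM in Control. AZ82 1, AZ82 2 and CW069 3 were high, and the other inhibitor libraries lay within the Control range. The biological coefficient of variation that edgeR estimated within groups was 0.378 for Egr1, against 0.133 on the trend at its level. It was 0.232 for Junb and 0.227 for Btg2, a recruiter of the deadenylase complex, against 0.152 and 0.144 on the trend.

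The same libraries were high for several members, a pattern noticed after the values were seen. AZ82 2 and CW069 3 were the highest pair for 6 of 43 members (14%) and for 3.05% of all genes tested. Those 6 were Egr1, Junb, Btg2, Zfp36l1, Npas4 and Klf4. Klf4 and Npas4 joined by near ties. Klf4 was at 148.6 CPM in AZ82 2, against 148.2 CPM in CW069 2 and 147 CPM in Control 2. Npas4 was at 2.556 CPM in CW069 3, against 2.547 CPM in AZ82 1. Junb was at 7.93 CPM in AZ82 2 and 7.78 CPM in CW069 3, and at 3.56 to 5.12 CPM in the other 7 libraries. Btg2 was at 9.43 and 9.99 CPM in the same pair and at 5.05 to 6.12 CPM elsewhere. CW069 3 alone was highest for 12 of 43 members, against 9.52% of all genes tested. Control 3 was lowest for 10 of 43, not far from its share of all genes (18.8%), so that count is not particular to the members. Among marker lists, that of round spermatids was highest in the same pair, with a median deviation of 0.17 in AZ82 2 and 0.13 in CW069 3, against 0.07 in AZ82 1, the next library. In AZ82 2 and CW069 3 the median deviation of other lists was 0.92 and -0.02 for adipocytes, 0.02 and -0.22 for macrophages, and -0.09 and -0.08 for endothelium, as log2 differences from each list's mean level in the 9 libraries. Inducible heat shock genes lay at -0.05 and -0.10. Their part in this pattern was not tested.

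**Figure D4:**
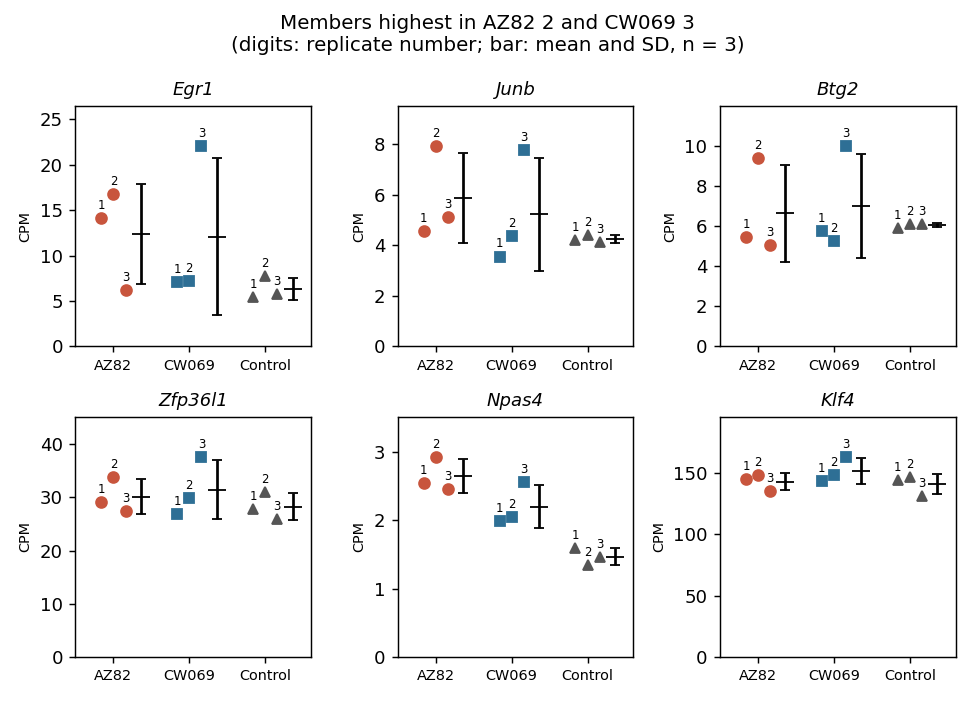
CPM in each library for the 6 members whose highest values were in AZ82 2 and CW069 3, with replicate numbers beside the points and the mean and SD (n = 3) as bars. For Egr1, Junb and Btg2 these libraries stand above the others of their own group (Egr1 also in AZ82 1), while Npas4 is above Control in all 6 inhibitor libraries.

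**Figure D5:**
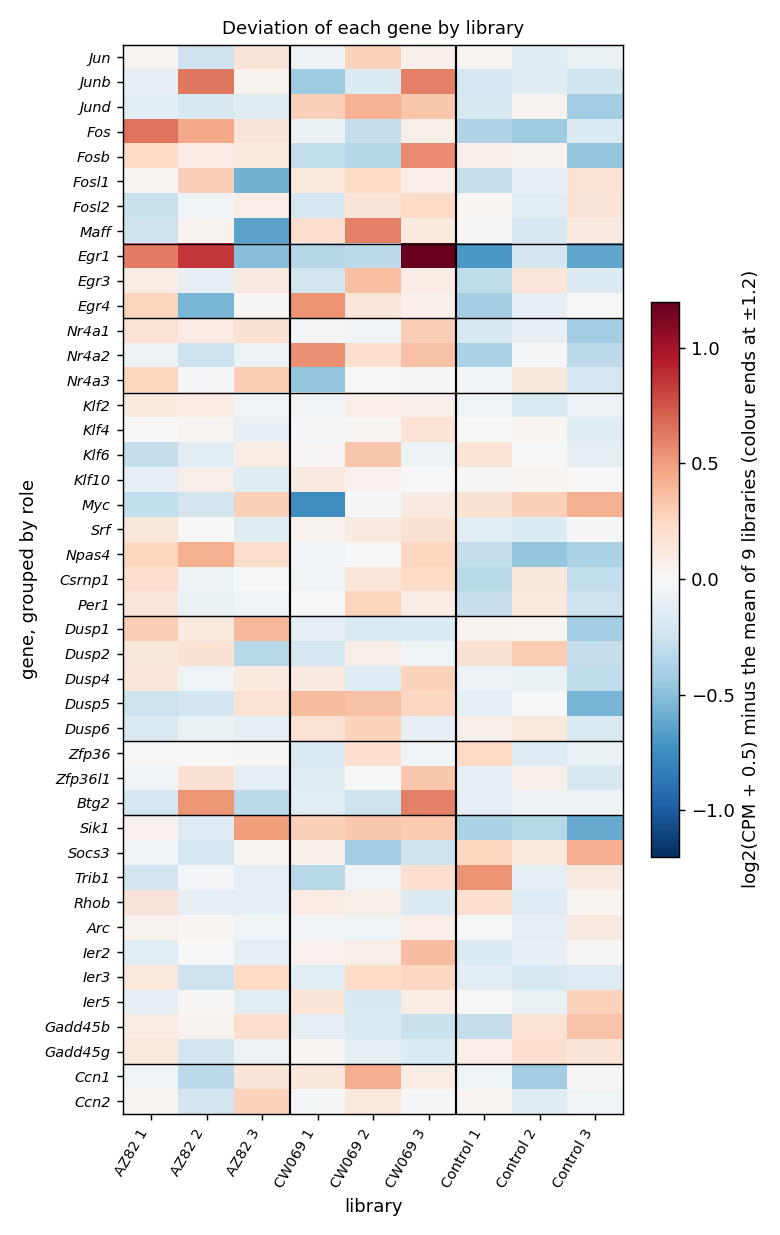
Deviation of each tested member in each library from its mean over the 9 libraries, in log2(CPM + 0.5), with members grouped by role. Egr1, Junb and Btg2 are high in AZ82 2 and CW069 3, Jund in the CW069 libraries, and Sik1 is low in the Control libraries.

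Averaging the inhibitors before setting them against Control asks how far their mean lay from Control, and a single inhibitor can move that mean. edgeR called 0 members higher or lower, against 0% and 0.00632% of all genes; limma-voom also called 0 members, and DESeq2 called Sik1, with 0.00632% and 0.0758% of genes called. At an unadjusted p under 0.05, 9 members (20.9%) were higher and 1 (2.33%) lower, against 4.31% and 5.27% of genes. The 5 members with no overlap, 4 higher (9.3%) and 1 lower (2.33%), stand beside 2.19% and 2.92% of genes. The median over members was 0.14, with 30 of 43 above 0 (69.8%), beside -0.0034 and 49.1% over all genes. Sik1 had a log2 fold change of 0.68 ± 0.13 (SE; edgeR adjusted p = 0.479; DESeq2 adjusted p = 0.0111), Npas4 0.72 ± 0.18 and Nr4a1 0.36 ± 0.09. Egr1 was at 0.96 ± 0.42, and at 0.57 without CW069 3, after which 5 members were higher at an unadjusted p under 0.05. The number lower was 0 without AZ82 2 and 2 without AZ82 3. Fos (0.71 ± 0.25), Jund (0.28 ± 0.09), Srf (0.17 ± 0.07), Dusp4 (0.23 ± 0.10) and Dusp5 (0.34 ± 0.15) made up the rest of the higher ones. Of these, Jund was at 0.17 and Dusp5 at 0.18 without Control 3. After AZ82 alone, Jund was at 0.02 and Dusp5 at 0.12, against 0.53 and 0.56 after CW069 alone.

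CW069 against AZ82 sets the inhibitors against each other at doses that differ, 50 µM against 1 µM, so compound and dose cannot be told apart. edgeR called 0 members and 0% of genes, limma-voom 0 members and 0% of genes, and DESeq2 1 member, Jund, and 0.0821% of genes. At an unadjusted p under 0.05, 4 members (9.3%) were higher after CW069 and 2 (4.65%) lower, against 2.58% and 2.39% of genes. No overlap was seen for 5 higher members (11.6%) and 3 lower ones (6.98%), against 5.52% and 5.8% of genes. Jund had a log2 fold change of 0.50 ± 0.10 (SE; 95% interval 0.28 to 0.73; edgeR adjusted p = 0.678; DESeq2 adjusted p = 0.0488). Maff (0.86 ± 0.34), Nr4a2 (0.77 ± 0.29) and Dusp5 (0.43 ± 0.17) were also higher, and Fos (-0.72 ± 0.27) and Dusp1 (-0.44 ± 0.14) lower (SE; edgeR adjusted p from 0.958 to 0.977). Gadd45b (-0.35 ± 0.20) and Ier2 (0.28 ± 0.15) did not overlap but had an unadjusted p above 0.05, and Ier2 was at 0.16 without CW069 3. The median over members was 0.07, with 26 of 43 above 0 (60.5%), beside -0.00123 and 49.6% over all genes. The number higher at an unadjusted p under 0.05 was 2 without AZ82 2, and the number lower was 4 without CW069 3 and 1 without AZ82 1. For Sik1, Nr4a1 and Npas4 the libraries of the inhibitors overlapped.

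Genes upstream of the members and their other inhibitors were read from 5 lists. edgeR called 0 genes of any list in any of the 4 comparisons. Of 26 kinases, 6 were lower (23.1%) and 0 higher at an unadjusted p under 0.05 after AZ82, against 4.79% and 4.04% of all genes. After CW069 2 were lower (7.69%) and 1 higher (3.85%), near the 3.71% and 3.63% of all genes. Mapk14, the p38 alpha kinase, was at 20.2, 20.4 and 19.6 CPM after AZ82, against 25.5, 24.3 and 25.1 CPM in Control (log2 fold change -0.31 ± 0.08, SE; edgeR adjusted p = 0.554). Prkacb, a catalytic subunit of protein kinase A, was at 16.1 to 17.1 CPM after AZ82 and 16.4 to 17.9 CPM after CW069, against 19.3 to 21.5 CPM in Control. Its log2 fold changes were -0.28 ± 0.09 and -0.20 ± 0.08 (SE), and no inhibitor library reached the Control range. Rps6ka1, an ERK-activated kinase, had 0.33 ± 0.10 after CW069, and Rps6ka5, a kinase of histones and CREB, -0.23 ± 0.07. Rps6ka2 was at 52.2, 55.6 and 44.1 CPM after CW069, against 38.2, 36.4 and 39.5 CPM after AZ82 (log2 fold change 0.41 ± 0.10, SE; edgeR adjusted p = 0.754).

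Of 15 upstream factors and coactivators, 0 had an unadjusted p under 0.05 against Control after either inhibitor. Over all genes, 4.04% were higher and 4.79% lower after AZ82, and 3.63% and 3.71% after CW069. For CW069 against AZ82, 2 of the 15 were higher (13.3%) and 0 lower, against 2.58% and 2.39% of genes. These were Elk3 (log2 fold change 0.39) and Crtc3 (0.22). Crem was at 219.5 to 247 CPM after AZ82 and 199 to 228 CPM after CW069, against 202 to 220.3 CPM in Control. Among 7 tested AP-1 partners, 0 had an unadjusted p under 0.05 after AZ82, where 6 of the 7 lay below 0. After CW069 1 was higher (14.3%) and 0 lower. It was Mafk, a small MAF protein, at 18.5, 23.4 and 19.1 CPM after CW069, against 16.1, 14.9 and 13.6 CPM in Control (log2 fold change 0.45 ± 0.13, SE; edgeR adjusted p = 0.535). For CW069 against AZ82, 2 of the 7 were higher (28.6%), Mafk (0.37) and Atf7 (0.22), and 0 lower. Of 14 further feedback inhibitors, Spred1, which restrains RAF activation, was below Control in all 6 inhibitor libraries, at 10.6 to 11.3 CPM after AZ82 and 9.93 to 11.02 CPM after CW069, against 12.4 to 14.6 CPM in Control. Its log2 fold changes were -0.31 ± 0.10 and -0.36 ± 0.10 (SE; edgeR adjusted p = 0.554 and 0.524). Dusp8, a phosphatase of stress kinases, was above Control in all 6, at 0.728 to 1.23 CPM and 0.625 to 1.10 CPM, against 0.333 to 0.385 CPM in Control. Its log2 fold changes were 1.49 ± 0.37 and 1.15 ± 0.38 (SE), with edgeR adjusted p = 0.554 after AZ82. The Control level rests on few reads per library, so the size of these fold changes is uncertain. The 8 inducible heat shock genes had a median log2 fold change of 0.00225 after AZ82 and -0.09 after CW069. Hspd1, a mitochondrial chaperonin, was at 42.4 to 48.7 CPM after AZ82 and 42.6 to 48.4 CPM after CW069, against 53.3 to 60.5 CPM in Control (log2 fold change -0.32 ± 0.08 and -0.29 ± 0.08, SE; edgeR adjusted p = 0.554 and 0.524).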

How the data were processed

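Testis RNA of 9 libraries was made into cDNA with a stranded mRNA kit, per the labels' protocols. The authors deposited raw read counts per gene; Trimmomatic, HISAT2, HTSeq and build GRCm39 are named, per the submitters' processing notes, and settings are not given in the sources used here. Each library's own file matched the joint table in 19991 of 19991 genes. Whether counting used strand is not given in the sources used here: 12 members overlap another annotated gene, and 4 (Junb, Fosl1, Csrnp1, Dusp1) one that is also counted, so their reads may be split.

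Genes were filtered with filterByExpr. With TMM scaling, edgeR 4.0.16 under R 4.3.3 modelled the 3 groups over 9 libraries, leaving 6 residual degrees of freedom. Its quasi-likelihood test was two-sided, with Benjamini-Hochberg adjustment over 15834 genes and calls at an adjusted p under 0.05. The scripts were tested on simulated data. DESeq2 1.42.0 and limma 3.58.1 (voom), other scalings, filters, fits of the compared groups alone, a replicate block and leaving out each library were alternatives. Library deviations used log2(CPM + 0.5). Median 95% intervals of members reached 0.340 (AZ82) and 0.336 (CW069) to either side on the log2 scale.

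The members and lists were chosen with earlier results of these data known. A member was given a fold change where its unadjusted p was under 0.05 or the groups did not overlap, and up to 4 genes per other list where p was under 0.05. The pair of libraries with several highest members, and Crem, were named after their values were seen.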

Additional observations from a re-analysis of the deposited data

How the results depend on the processing

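None of the 76 fold changes named by rule changed sign among their 1269 values in the alternative fits. Genes were named for a small p or for groups without overlap, so a kept sign was largely fixed by that rule. In 6 of the values a member passed the test, 4 for Jund and 2 for Sik1. Against 0 called members, DESeq2 called 2 after CW069, 1 for CW069 against AZ82 and 1 for the inhibitor mean, and the fit of the compared groups alone called 1 for CW069 against AZ82 (Jund, adjusted p = 0.0428). Leaving out a library gave 0 to 1 called members after CW069 and 0 in the other comparisons. Counts of called genes, 0 after AZ82, were 6 with DESeq2, 1 with limma-voom and 1 with library size alone; 0 after CW069, they were 28 with DESeq2 and 1 with library size alone; 0 for CW069 against AZ82, they were 13 with DESeq2 and 8 in the fit of the compared groups alone; and 1 for the inhibitor mean, they were 12 with DESeq2. With a library left out they ranged from 0 to 4 after AZ82, 0 to 7 after CW069, 0 to 4 for CW069 against AZ82 and 0 to 6 for the mean. The cause of these moves was not tested.

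With library size alone the median over members was 0.0146 after AZ82, 0.145 after CW069 and 0.0755 for the mean, where all genes moved to -0.0807, -0.051 and -0.0669. With a library left out the median ranged from 0.0365 to 0.11 after AZ82, 0.131 to 0.251 after CW069, 0.017 to 0.153 for CW069 against AZ82 and 0.125 to 0.169 for the mean. The inhibitor mean was already fitted on all libraries, so it has no fit of the compared groups alone.

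Replicate numbers are shared between groups. Correlations of deviations across genes ran from -0.169 to 0.0468 for same-numbered libraries of different groups, and from -0.105 to 0.187 for differently numbered ones. No pairing by number was visible. With 3 libraries per group, this cannot tell whether same-numbered libraries were collected or prepared together. With the replicate block 0 genes were called for the inhibitor mean, and 0 members in any comparison. Depth limits Fos, Nr4a2, Maff, Myc, Socs3, Egr4 and Ier3, which lie near 1 CPM, and Atf3 and Egr2 below it. Outside the members it limits Dusp8 as well.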
